A study of Mus musculus with 6 samples.

Results

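Transcripts of 6 genes tied to the oestrogen receptor and its ligands were followed, with and without OHT, in embryonic stem (ES) cells of the mouse and in FLICs, the other cell type of the series. OHT is hydroxytamoxifen, a metabolite of tamoxifen. The 6 genes, Esr1, Esr2, Esrra, Pgr, Greb1 and Nrip1, were chosen by name, without a threshold on their values, and all 6 of them have a row among the 22600 genes of the deposited count table. The choice was made with earlier results of the same 6 count columns known, so the values are a description and support nothing by themselves. The question attached to the list was whether OHT acts on oestrogen-responsive genes in these cells, and whether an inducible Cre recombinase fused to the receptor adds reads.

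Total RNA was sequenced from 4 groups on a C57BL/6 background, each kept in culture for 96 h: untreated ES cells labelled wild-type (n = 2), ES cells given OHT for 3 days and labelled TRF2-/- (n = 2), untreated FLICs labelled wild-type (n = 1) and FLICs given OHT and labelled TRF2-/- (n = 1). TRF2, the product of Terf2, binds and protects telomeres. OHT and loss of TRF2 always came together, and what each of them did cannot be told apart. The labels name neither the recombinase nor its promoter, nor the number of clones behind each line, nor whether replicates were grown separately. The spread between libraries may therefore be technical.

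Oestrogen receptors are ligand-activated transcription factors of the nuclear receptor family. On binding a hormone they leave a chaperone complex built around HSP90, pair up on DNA and recruit coactivators or corepressors. Tamoxifen and its hydroxylated metabolites bind the same pocket and, depending on the tissue, block or partly mimic the hormone. The same pocket, mutated so that it prefers the drug, is widely used to make a fused Cre recombinase enter the nucleus only when OHT is given. A count per gene does not show which part of a gene the reads came from. Reads of such a fusion, where one is present, therefore cannot be told apart here from reads of the cell's own Esr1.

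How far the receptor genes can be mistaken for each other was read from their coding sequences, since each count rests on telling them apart. The most alike ungapped stretches of 60 bases lie in the part that encodes the DNA-binding zinc fingers. Esr1 and Esr2 had 53 of 60 bases in common there, Esr1 and Esrra 46, and Esr1 and Pgr 43. Of the 2 pairs printed here, the first is Esr1 against Esr2 and the second is Esr1 against Esrra, with bases that are the same in both members of a pair in capitals. In the first pair the Esr1 stretch covers coding bases 607 to 666 (GRCm38 chromosome 10, plus strand, 4746759 to 4746807 in coding exon 2 and 4783857 to 4783867 in coding exon 3) and the Esr2 stretch coding bases 544 to 603 (chromosome 12, minus strand, 76165449 to 76165497 in coding exon 2 and 76158708 to 76158718 in coding exon 3). In the second pair the Esr1 stretch covers coding bases 585 to 644 (chromosome 10, 4746737 to 4746796, coding exon 2) and the Esrra stretch coding bases 255 to 314 (chromosome 19, minus strand, 6920074 to 6920133, coding exon 1).
Esr1, first pair: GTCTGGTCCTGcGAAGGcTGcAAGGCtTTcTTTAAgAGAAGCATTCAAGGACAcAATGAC
Esr2, first pair: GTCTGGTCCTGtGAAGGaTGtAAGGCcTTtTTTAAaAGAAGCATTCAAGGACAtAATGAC
Esr1, second pair: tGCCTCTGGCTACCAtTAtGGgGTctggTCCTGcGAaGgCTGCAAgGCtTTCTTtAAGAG
Esrra, second pair: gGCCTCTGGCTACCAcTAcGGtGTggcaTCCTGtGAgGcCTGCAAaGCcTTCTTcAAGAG
The longest run of identical bases between Esr1 and Esr2 was 17 bases, against 14 for Esr1 and Esrra and 11 for Esr1 and Pgr. None of the 31-base words of the coding sequences of Esr2, Esrra, Pgr and Nrip1 occurred in the GENCODE M21 transcripts of another gene. For Esr1, 3 of 1767 such words were shared, with Mex3d. For Greb1, 484 of 5832 were shared, with the gene model Gm48140, so the Greb1 counts are the less certain ones.

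Total counts ran from 23534551 to 43965309 per library, and a count of 0 allows up to 3 counts, or 0.0686 to 0.118 CPM, the count relative to the scaled library total, for counting error only. Terf2 (ENSMUSG00000031921) followed the labels, at 554 and 732 counts in the untreated and 9 and 10 counts in the treated ES cell libraries, and at 268 counts in FLICs without and 5 with OHT. Its log2 fold change with OHT in ES cells was -5.82 (SE 0.26, edgeR adjusted p = 0.00622). The cell type labels also held. The 7 ES cell markers summed to between 3351 and 3704 CPM in ES cells and to 135 and 77.1 CPM in FLICs, where Zfp42 had no count. The 7 mesenchymal markers summed to between 8.24 and 13.2 CPM in ES cells and to 7075 and 9911 CPM in FLICs. The OHT-treated ES cell libraries stood further apart from each other than the untreated ones. Among the 12813 genes averaging 1 CPM or more, 432 differed by 2-fold or more between the treated libraries and 0 between the untreated ones, on log2(CPM + 1).

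Per coding length, the 6 genes fell into a higher and a lower set. Levels were compared between genes as TPM, which divides each count by the deposited coding length and scales each library to the same total. Esr1 was highest in each of the 6 libraries, at 68.2 to 109.9 TPM, followed in each by Esrra at 13.4 to 25.5 TPM and Nrip1 at 6.19 to 14.0 TPM. Pgr, Greb1 and Esr2 were below 0.39 TPM in each library, in an order that changed from library to library. Greb1, with the longest coding length of the 6 (5870 bases), still had 24 to 49 counts per library, above the 3 that a count of 0 allows. Esr1 stood 3.18 to 8.18 times above Esrra per coding length, and above 87.4% to 91.5% of all genes in the table.

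**Figure D1:**
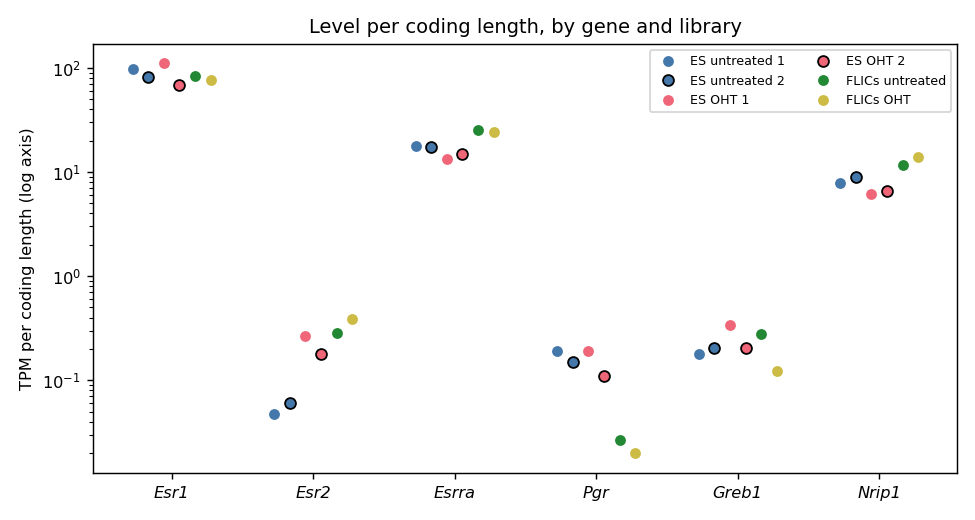
Level of each gene in TPM, per coding length, on a log axis, with 1 point per library coloured by group and the second replicates of ES cells outlined in black. Esr1 lies between 68.2 and 109.9 TPM in each library, whereas no point of Esr2, Pgr or Greb1 reaches 0.39 TPM.

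Esr1 (ENSMUSG00000019768, chromosome 10, 4611593 to 5005614, plus strand) encodes oestrogen receptor alpha, the main oestrogen-binding receptor of the uterus and mammary gland. Untreated ES cells gave 4883 and 4873 counts and treated ES cells 5500 and 2772, and FLICs gave 4570 counts before and 5658 after OHT. Scaled for library size (CPM, with the trimmed mean of M-values), these were 162 and 129.7 CPM, 172 and 109 CPM, 141 CPM and 129 CPM. The highest and the lowest value both came from ES cells with OHT, and the untreated values lay between them.

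The replicates of Esr1 differed by more than counting error. The 95% Poisson interval was 157 to 166 CPM in the first and 126 to 133 CPM in the second untreated ES cell library. With OHT it was 167 to 176 CPM in the first and 105 to 113 CPM in the second. In both groups the first library was the higher one, by 1.25 times untreated and by 1.58 times with OHT. Set against the untreated library with the same number in its title, Esr1 with OHT was at 1.06 times in the first and 0.838 times in the second.

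No difference of Esr1 with OHT or between cell types was called with all 6 libraries. In ES cells the untreated mean was 146 ± 22.6 CPM (SD, n = 2), and the OHT mean was 140.1 ± 44.5 CPM (SD, n = 2). The fitted log2 fold change was -0.06 (SE 0.25), with a 95% interval from -0.67 to 0.56. That interval is not the limit of detection, since a call needs an adjusted p under 0.05. Changes beyond that size could also go uncalled. The fold change was -0.42 without the first OHT library and 0.28 without the second. Untreated FLICs against untreated ES cells gave -0.05 (SE 0.31, interval -0.80 to 0.71), and FLICs with OHT against ES cells with OHT gave -0.12 (SE 0.31, interval -0.87 to 0.64). The latter was 0.25 without the first OHT library of ES cells and -0.42 without the second. The highest library was 1.58 times the lowest, a range narrower than the median range of 2.38 times over the same 12813 genes. Of those genes, 21.2% had a narrower range still.

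Esr2 (ENSMUSG00000021055, chromosome 12, 76120419 to 76177259, minus strand) encodes oestrogen receptor beta, the second oestrogen-binding receptor. Untreated ES cells gave 2 and 3 counts and treated ES cells 11 and 6, and FLICs gave 13 counts before and 24 after OHT. None of these reached 0.55 CPM, and the untreated ES cell values, at 0.0662 and 0.0798 CPM, were at or under the level that a count of 0 allows. Both treated ES cell libraries, at 0.343 and 0.235 CPM, lay above both untreated ones. The ratio of summed counts, scaled for depth, was 4.0 for OHT against untreated ES cells, with an exact counting interval from 1.42 to 13.9 that covers counting error only. The fitted log2 fold change was 1.94 (SE 0.66), not called. It was 1.63 without the first OHT library and 2.20 without the second. Between untreated FLICs and untreated ES cells the ratio was 5.44 (counting interval 1.82 to 19.5) and the fitted value 2.39 (SE 0.73), called higher.

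Esrra (ENSMUSG00000024955, chromosome 19, 6910977 to 6921813, minus strand) encodes oestrogen-related receptor alpha, an orphan receptor that does not bind oestrogen and drives genes of mitochondrial respiration. Its level was 18.1 and 16.9 CPM in the untreated and 13.0 and 14.6 CPM in the treated ES cell libraries, and 26.8 CPM in FLICs before and 25.1 CPM after OHT. The treated ES cell libraries lay below the untreated ones, and both FLICs libraries lay above all 4 ES cell libraries. The change with OHT in ES cells was -0.34 on the log2 scale (SE 0.16, 95% interval -0.73 to 0.05), not called. It was -0.26 without the first OHT library and -0.39 without the second. Untreated FLICs against untreated ES cells gave 0.62 (SE 0.19), called higher, and FLICs with OHT against ES cells with OHT gave 0.87 (SE 0.19), called higher.

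Nrip1 (ENSMUSG00000048490, chromosome 16, 76287400 to 76373827, minus strand) encodes RIP140, a corepressor that binds liganded nuclear receptors and is itself induced by oestrogen in breast cancer cells. ES cells had 22.1 and 24.4 CPM before and 16.4 and 17.6 CPM after OHT. In FLICs it was at 33.8 CPM untreated and 40.6 CPM with OHT. As for Esrra, the ES cell groups did not overlap and both FLICs libraries were the highest. The means in ES cells were 23.2 ± 1.61 CPM untreated and 17.0 ± 0.847 CPM with OHT (SD, n = 2 each), a log2 fold change of -0.45 (SE 0.15, interval -0.81 to -0.08) that was not called. It was -0.40 without the first OHT library and -0.46 without the second. Cell type gave 0.54 (SE 0.18) in untreated cells and 1.25 (SE 0.17) with OHT, both called higher.

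Pgr and Greb1 are textbook oestrogen-induced genes. Pgr (ENSMUSG00000031870, chromosome 9, 8899833 to 8968611, plus strand), the progesterone receptor, had 13 and 12 counts in the untreated and 13 and 6 in the treated ES cell libraries, and 2 in each FLICs library. Those are 0.0457 to 0.430 CPM, and the FLICs values lie under the level that a count of 0 allows. The ES cell groups overlapped, with a fitted log2 fold change of -0.19 (SE 0.57, interval -1.61 to 1.22), so no change of Pgr with OHT could be measured at this depth. The ratio of ES cells to FLICs was 5.97 untreated (counting interval 1.49 to 52.0) and 7.21 with OHT (1.74 to 63.9). The fitted values of FLICs against ES cells were -2.52 (SE 0.93), not called, and -2.73 (SE 0.94), called lower.

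Greb1 (ENSMUSG00000036523, chromosome 12, 16670615 to 16800886, minus strand), a receptor-bound cofactor, had 26 and 35 counts in the untreated ES cell libraries and 49 and 24 in the treated ones. In CPM these were 0.861 and 0.931 untreated and 1.53 and 0.941 with OHT, so the groups did not overlap but the lower treated library lay next to the untreated ones. The log2 fold change was 0.47 (SE 0.39, interval -0.49 to 1.43), not called. In FLICs the order was the other way round, with 44 counts (1.36 CPM) untreated and 26 counts (0.595 CPM) with OHT, a ratio of 0.438 (counting interval 0.259 to 0.727). With 1 library per condition that ratio has no replicate check.

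**Figure D2:**
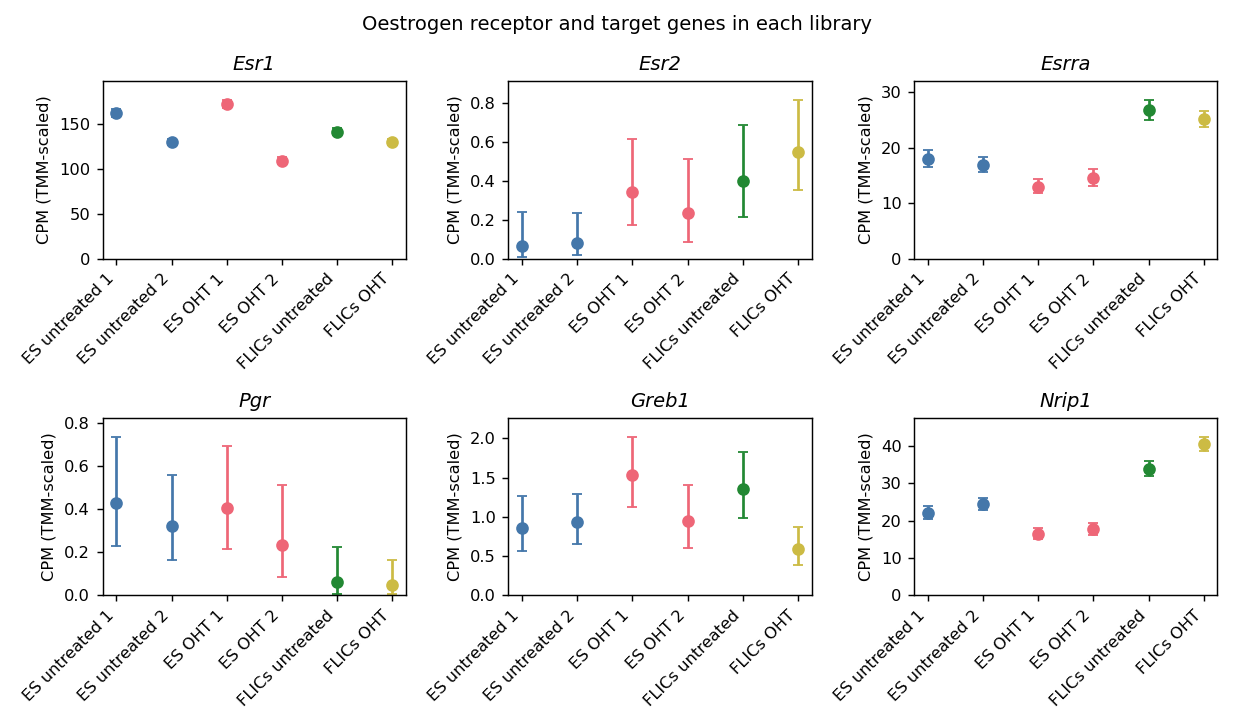
CPM of each gene in each library, with the y axis starting at 0 and bars for the 95% Poisson interval of the count, which covers counting error only. The OHT-treated ES cell libraries hold both the highest (172) and the lowest (109) value of Esr1, and Esrra and Nrip1 are highest in both FLICs libraries.

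Counted together for OHT in ES cells, 0 of the 6 genes was called by edgeR's quasi-likelihood test at an adjusted p of 0.05, against 0.534% of the 15535 genes tested (0.521% higher and 0.0129% lower). That count of 0 is for all 6 libraries together. Fold changes without the first or the second OHT library are given above for Esr1, Esr2, Esrra and Nrip1. Such fits take their spread from the untreated ES cell pair alone, which stood closer together. No call is read from them. All 6 genes passed the filter on low counts. DESeq2, which gave 5 of them an adjusted p, called 0 as well, and 2 (Esr2 and Nrip1) had an unadjusted p under 0.05 in edgeR, as had 18.3% of all genes. The ES cell groups did not overlap for 4 of the 6, higher with OHT for Esr2 and Greb1 and lower for Esrra and Nrip1, against 52.8% of all genes (25.2% higher and 27.6% lower). With 4 of 6 beside that share, nothing is read from the count.

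Between cell types, 3 of the 6 genes (Esr2, Esrra, Nrip1) were called higher in untreated FLICs and 0 lower by edgeR. Of all genes, edgeR called 54.9% there, 26.2% higher and 28.7% lower, and DESeq2 called 7743 of 15535. In bulk RNA, fewer cells of a type and less RNA per cell cannot be told apart. The 5 markers of simple epithelium, a source tissue of many oestrogen-induced genes, summed to between 836 and 1090 CPM in ES cells. In FLICs they summed to 134 and 149 CPM. The 3 endothelial markers were also higher in ES cells, at 86.0 to 155 CPM against 2.16 and 3.32 CPM. Such sums do not show that these cell types were present, and their part in these differences was not tested. These contrasts assume that a single FLICs library varies like the ES cell libraries. DESeq2 called 0 of the 6 there, and none of the 3 calls held without the first or without the second untreated ES cell library. With OHT on both sides, edgeR called Esrra and Nrip1 higher and Pgr lower. Of all genes, edgeR called 57.7% there, 28.4% higher and 29.3% lower, and DESeq2 called 8001 of 15535. DESeq2 called 2 of the 6 in that contrast, and the Esrra and Pgr calls were lost without either untreated ES cell library.

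**Figure D3:**
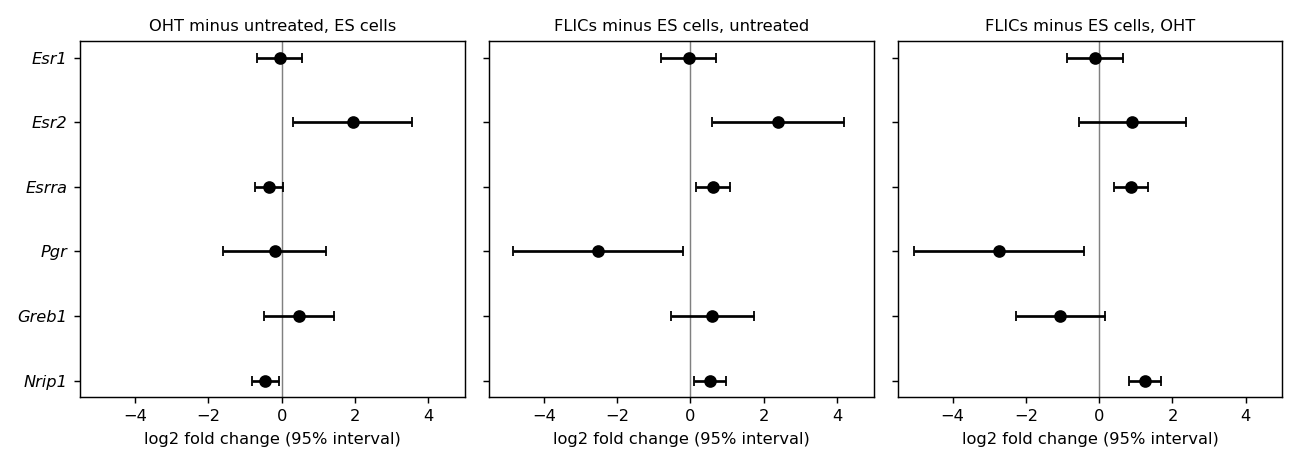
Fitted log2 fold change of each gene with its 95% interval in 3 contrasts, on the same axis. For OHT in ES cells the interval of Esr1 runs from -0.67 to 0.56, and those of Pgr, Greb1 and Esrra also include 0. Those of Esr2 (0.31 to 3.57) and Nrip1 (-0.81 to -0.08) do not, though neither gene was called.

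In FLICs, OHT was compared in 1 library per condition and without a test. Esr1, Esrra and Nrip1 averaged at least 1 CPM in FLICs, and none of them differed by 2-fold or more. Of the 11789 genes with such a mean, 0.526% did (0.424% higher and 0.102% lower). Esr2, Greb1 and Pgr averaged 0.475, 0.976 and 0.0537 CPM in FLICs, so that rule could not count them. For Greb1 the ratio of OHT to untreated was 0.438, on 26 and 44 counts. The differences in log2(CPM + 1) were -0.12 for Esr1, -0.09 for Esrra, 0.26 for Nrip1, -0.56 for Greb1, 0.14 for Esr2 and -0.02 for Pgr. That scale understates changes of the last 3, which lie near or below 1 CPM. Nrip1 was thus lower with OHT in both ES cell libraries and higher in the FLICs library. The difference between these OHT differences was 0.71 (SE 0.25) on the log2 scale and was not called. It was 0.66 without the first OHT library of ES cells and 0.73 without the second. Greb1 gave -1.65 (SE 0.67), not called, and was -1.25 without the first OHT library and -1.99 without the second. edgeR called 0 of 15535 genes in that contrast (0.0%), where 1057 (6.8%) had an unadjusted p under 0.05 and DESeq2 called 21 of 11920 (0.176%).

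The other receptors of the family were read from a list of 10 oestrogen-related and steroid receptors that includes Esr1, Esr2, Esrra and Pgr. Of 9 tested, 0 was called with OHT in ES cells by edgeR, beside 0.534% of all genes. The median log2 fold change was -0.06, beside -0.0082 over all genes. That median ran from -0.26 to 0.17 when 1 library was left out. Esrrb, the orphan receptor that sustains naive pluripotency, measured 322 and 339 CPM before and 224 and 169 CPM after OHT (-0.75, SE 0.18, edgeR adjusted p = 0.147). DESeq2 called it, the only call it made in this list. In FLICs Esrrb was at 0.185 and 0.137 CPM. Nr3c2, the mineralocorticoid receptor, was at 0.35 (SE 0.47) with OHT in ES cells. Between untreated cell types, 4 of the 9 receptors were called higher in FLICs and 2 lower, beside 26.2% and 28.7% of all genes. Nr3c1, the glucocorticoid receptor, rose by 1.86 (SE 0.39, edgeR adjusted p = 0.00943), from 8.21 and 10.5 CPM to 34.2 CPM. Nr3c2 fell by 3.18 on the log2 scale (SE 0.79, edgeR adjusted p = 0.0174), and Esrrb fell by 10.77 (SE 0.42, edgeR adjusted p = 4.2e-05). Both genes averaged 1 CPM only through ES cells, with Nr3c2 at 0.154 CPM in untreated and 0.183 CPM in treated FLICs. Their lower level in FLICs was thus fixed by the way they were named.

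Oestrogen-induced genes were a list of 34 drawn mainly from breast and uterus that includes Pgr, Greb1 and Nrip1. None was called with OHT in ES cells by edgeR, beside 0.534% of all genes. Of 30 tested, 13 lay above and 17 below 0, with a median of -0.07 that lay between -0.01 and 0.04 when 1 library was left out, and DESeq2 also called 0 of the 26 it adjusted. An unadjusted p under 0.05 was found for 9 of the 30, beside 18.3% of all genes. Tff1, the classic oestrogen-induced gene of breast cancer cells, had no count in any library. The genes named for OHT had to average 1 CPM over the 6 libraries, and 3 of them met that only through FLICs, with 1 and 2 counts in the untreated ES cell libraries and no ES cell library above 0.41 CPM. They were Wnt4, a secreted signal (19 summed counts with OHT against 3, ratio 7.46, counting interval 2.20 to 39.3), Areg, an EGF receptor ligand (17 against 3, ratio 6.67, interval 1.93 to 35.5), and Egr3, an immediate early factor (12 against 3, ratio 4.71, interval 1.27 to 26.0). Their edgeR adjusted p ran from 0.110 to 0.180. Their higher level in FLICs was thus fixed by the way they were named.

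Between untreated cell types, 13 of the 30 oestrogen-induced genes were called higher in FLICs and 5 lower, beside 26.2% and 28.7% of all genes, with a median of 0.41 beside -0.11 over all genes. Cxcl12, a chemokine of stromal cells, had 4 summed counts in untreated ES cells against 2810 in untreated FLICs, a ratio of 1469.8 (counting interval 573 to 5398). The ratio was 622 for Wnt4 (212 to 3022) and 175 for Areg (59.2 to 855). Like those genes, Cxcl12 averaged 1 CPM only through FLICs, with no ES cell library above 0.24 CPM. Its higher level in FLICs was thus also fixed by the way it was named. In FLICs with OHT, Areg was the 1 gene of this list past 2-fold, at 3.07 CPM against 7.75 CPM.

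Coregulators, which receptors recruit to switch genes on or off, gave 0 calls with OHT in ES cells by edgeR or DESeq2. By edgeR 0.534% of all genes were called. Of 21 tested, 17 were below 0, beside 50.7% of all genes, with a median of -0.29. An unadjusted p under 0.05 was found for 5 of the 21, beside 18.3% of all genes. Nrip1, described above, belongs to this list and is among those 5. Ncor1, a corepressor bound by tamoxifen-loaded receptor, measured 603 and 689.9 CPM before and 451 and 415 CPM after OHT (-0.58, SE 0.15, edgeR adjusted p = 0.158). Gata3, a partner of the receptor in breast cells, was at 0.84 (SE 0.29). Without the second OHT library the list median was -0.09, and without the first -0.40. Between untreated cell types 2 of the 21 coregulators, Gata3 and Nrip1, were called higher in FLICs and 9 lower. The shares of all genes were 26.2% and 28.7%. Gata3 rose by 2.83 (SE 0.33), while Tfap2c, which also marks ES and germ cells, fell by 7.16 (SE 0.33). The coactivator Ncoa1 fell by 2.84 (SE 0.25). Tfap2c averaged 1 CPM only through ES cells, with 0.278 CPM in untreated and 0.320 CPM in treated FLICs. Its fall was thus fixed by the way it was named.

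Chaperones that hold steroid receptors in a ligand-binding state had a median of -0.06 with OHT in ES cells, which was 0.013 at 5 CPM in 2 libraries. Of 11 tested, 9 were below 0, beside 50.7% of all genes. By edgeR 0 of the 11 was called, beside 0.534% of all genes, and by DESeq2 also 0. An unadjusted p under 0.05 was found for 0, beside 18.3% of all genes. The farthest from 0 were Fkbp5 (-0.32, SE 0.21), Fkbp4 (-0.31, SE 0.22) and Ptges3, the co-chaperone p23 (-0.31, SE 0.13). In untreated FLICs 0 of the 11 were called higher and 3 lower, beside 26.2% and 28.7% of all genes. Fkbp5 fell by 2.58 (SE 0.30), Hsp90aa1, the inducible HSP90, fell by 2.04 (SE 0.20) and Ptges3 fell by 0.75 (SE 0.17).

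Genes that make or break down oestrogen and tamoxifen gave 0 calls with OHT in ES cells among 12 tested, where 0.534% of all genes were called. Of the 12, 11 were above 0, beside 7568 of all 15535 genes, with a median of 0.27. DESeq2 called 0 of the 9 it adjusted, and 2 had an unadjusted p under 0.05, beside 18.3% of all genes, the aromatic hydrocarbon-inducible oxidases Cyp1a1 and Cyp1b1. Cyp1a1 measured 0.629 and 0.905 CPM before and 2.37 and 4.51 CPM after OHT (2.15, SE 0.44, edgeR adjusted p = 0.119), and Cyp1b1, which averaged 1 CPM only through FLICs, was at 1.54 (SE 0.58). Hsd17b1, which makes oestradiol, was at 0.281 and 4.0 CPM in the treated libraries, on both sides of the untreated 1.19 and 1.38 CPM. The list median was 0.02 without the second OHT library and 0.84 without the first. In untreated FLICs 4 of the 12 were called higher and 2 lower, beside 26.2% and 28.7% of all genes. Cyp1b1 rose by 8.26 (SE 0.46) and Hsd17b7 by 2.69 (SE 0.18), while the drug exporter Abcb1a fell by 3.20 (SE 0.27). The rise of Cyp1b1 was fixed by the way it was named.

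Tamoxifen also binds a site formed by the sterol enzymes EBP and DHCR7, which act late in cholesterol synthesis. Of 8 genes of that site and of neighbouring steps, 0 was called with OHT in ES cells by edgeR or DESeq2. By edgeR 0.534% of all genes were called. Of the 8, 7 were below 0, beside 50.7% of all genes, and the median was -0.23. An unadjusted p under 0.05, as 18.3% of all genes had, was found for 3, Dhcr7 (-0.51, SE 0.13, 66.0 and 61.7 CPM untreated, 45.7 and 43.9 CPM with OHT), Lss (-0.61, SE 0.17) and Sqle (-0.57, SE 0.19). Ebp itself was at -0.12. In FLICs all 8 were above 0 with OHT, by up to 0.61 on log2(CPM + 1), none by 2-fold, while 43.6% of all genes lay below 0 there. In untreated FLICs 4 of the 8 were called higher than in ES cells and 1 lower, beside 26.2% and 28.7% of all genes. Cyp51 rose by 2.10 (SE 0.17) and Sc5d by 1.65 (SE 0.17).

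Genes of oxidative metabolism known as Esrra targets gave 0 calls with OHT in ES cells. Of these, 0 of 10 was called by edgeR, beside 0.534% of all genes, and 0 of 9 by DESeq2. An unadjusted p under 0.05 was found for 0, beside 18.3% of all genes. With 5 above 0 and 5 below, the median was -0.04. That median was 0.30 without the count filter, 0.0024 with relative log expression scaling and -0.14 without the second OHT library. Cpt1b, the muscle fatty acid transporter, was at 0.55 (SE 0.25), Cycs, cytochrome c, at 0.31 (SE 0.14) and Pdk4, a brake on pyruvate oxidation, at -0.28 (SE 0.22). In untreated FLICs 3 of the 10 were called higher and 1 lower, beside 26.2% and 28.7% of all genes. Pdk4 rose by 4.22 (SE 0.23) and Cycs by 0.55 (SE 0.16), while Acadm, which oxidises medium-chain fatty acids, fell by 1.21 (SE 0.19).

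**Figure D4:**
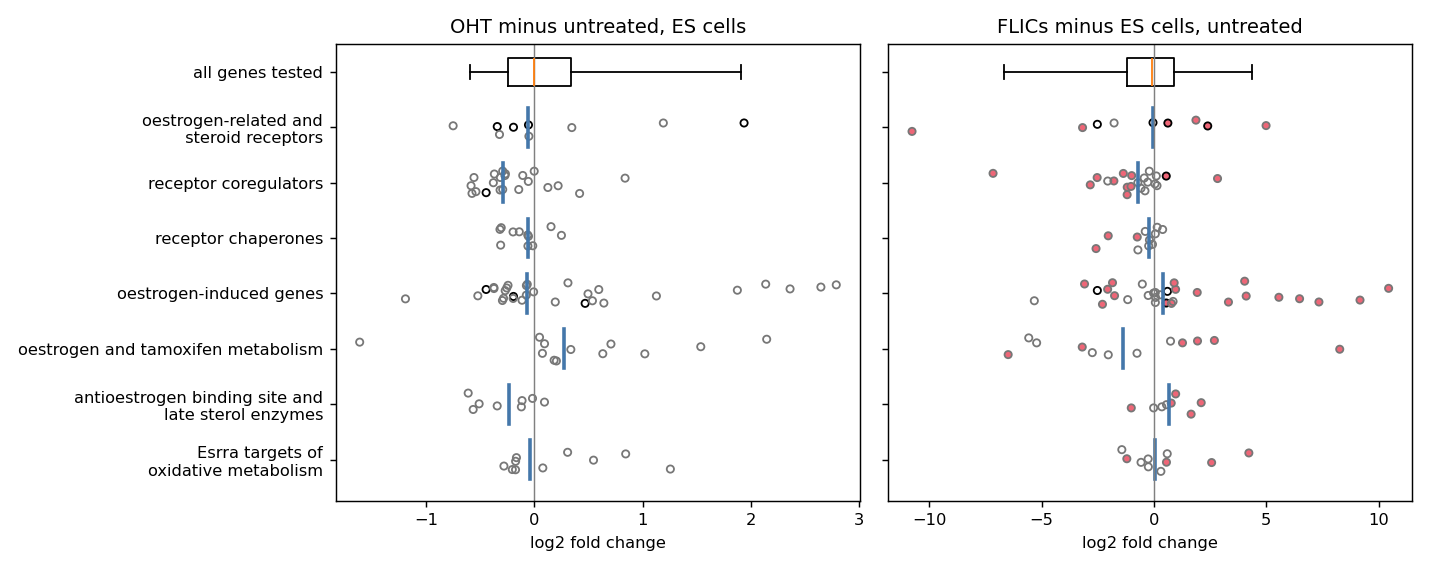
Fitted log2 fold changes of the tested genes of 7 lists, as 1 point per gene, filled where called and outlined in black for the 6 genes described above, with the list median as a blue bar and, at the top, a box for all genes tested (quartiles, whiskers at the 5th and 95th percentile). No point is filled for OHT in ES cells, whereas each list holds filled points for untreated FLICs against ES cells.

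The genes whose profile over the 6 libraries came closest to each of these, by the root mean square distance between centred log2(CPM + 1) values among 12283 named genes, were described for the 4 with a mean of at least 1 CPM. Closest to Esr1 were Rbsn (distance 0.0547), Ing1 (0.0610) and Brd3 (0.0649), each highest or close to it in the first OHT library and lowest in the second. Among the closest to Esrra were Chrac1 (0.0452) and Cdk4 (0.0456), and closest to Nrip1 were Kdelr2 (0.050), Mapkbp1 (0.0522) and Kif3b (0.0544). Closest to Greb1 were Ap1s3 (0.0757), Ercc6 (0.110) and Wdr75 (0.121). The libraries share 1 experiment and 6 points are few, so likeness here describes the profiles only.

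Promoter windows from RefSeq (GRCm38.p6, 250 bases before to 50 after each start) were available for all 6 genes, as 9 windows. The palindromic oestrogen response element, GGTCA and its reverse complement TGACC with any 3 bases between them, and the oestrogen-related receptor element TCAAGGTCA, which ends in the 5 letters of that arm, were searched on both strands. Neither occurred in any of the 9 windows, and 0.07% and 0.423% of 32851 windows held them. The arm GGTCA alone occurred in 5 of the 9 windows, of Esr1, Esr2, Greb1 and Nrip1, and in 40.5% of all windows, so its presence is common. One match each of Greb1 and Nrip1 is printed here, as the oestrogen-induced genes among the 4, along the gene's strand and with the arm or TGACC in capitals. In Greb1 the match starts 88 bases before the upstream start (chr12:16800958-16800986, minus strand), and in Nrip1 77 bases before the start (chr16:76373888-76373916, minus strand).
Greb1: ccaagcaacaaaTGACCtctgtccccgga
Nrip1: ctagtcctgttgGGTCAgatccttcctgg
A match is a description of these letters and not of receptor binding, which was not measured here.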

How the data were processed

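The authors deposited whole-number read counts per gene for 6 libraries, with a length per gene. Salmon, DESeq2 and the build GRCm38 appear in the submitters' processing notes, without roles or versions. For the annotation and read assignment, the sources used here give nothing. Deposited lengths equalled the union of coding bases in GENCODE M21 for 22174 of 22600 genes. Symbols were matched for 22509.

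Counts were filtered by group with filterByExpr (15535 genes left), scaled by TMM and fitted with edgeR 4.0.16 (quasi-likelihood, 1 mean per group, R 4.3.3), with Benjamini-Hochberg adjustment over all genes and calls at 0.05, on 2 residual degrees of freedom. SEs are the fold change divided by the root of F, and 95% intervals use the t distribution with prior degrees of freedom added. FLICs with OHT were compared on log2(CPM + 1) without a test. Poisson and ratio intervals are exact. The procedure was also run on simulated counts that gave treated and untreated ES cells the same spread per gene. In the data the treated libraries stood further apart, so nothing is concluded from that run. Libraries of 1 group were taken as replicates, and p-values measure only the spread between them.

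The members and lists were chosen with earlier results of these data known. Named genes were the members, Terf2, and up to 3 per list and contrast with the largest change at a mean of at least 1 CPM (called genes first between cell types), plus the 3 nearest profiles. Of the genes this rule takes, 3 are not reported here. Ebp, Tff1 and Areg in FLICs were named after their values were seen. Alternatives were relative log expression scaling, DESeq2 1.42.0, other filters, a replicate block, ES cell libraries alone, and each ES cell library left out.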

Additional observations from a re-analysis of the deposited data

How the results depend on the processing

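The count of genes called with OHT in ES cells, 83, was 371 by DESeq2, 262 without a count filter, 46 at 5 CPM in 2 libraries, 148 with the 4 ES cell libraries alone and 18 to 6165 when 1 library was left out. Untreated FLICs against ES cells gave 8532, and 5375 to 12025 with 1 library left out. The contrast of OHT differences gave 0, 21 by DESeq2 and 0 to 2804 with 1 library left out. OHT in FLICs gave 62 genes past 2-fold, 112 with a pseudocount of 0.5 CPM and 37 at a mean of 5 CPM. The replicate number as a block gave 1206 and 17 calls in the OHT and difference contrasts. The deviations of the ES cell pairs correlated at 0.448 over 12813 genes, but 2 numbered pairs do not show that the numbers pair the samples.

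With OHT in ES cells each list had 0 calls, beside 0.534% of all genes. With the block, calls were 1 of 9 receptors, 1 of 21 coregulators, 3 of 30 oestrogen-induced, 1 of 12 metabolism and 2 of 8 sterol genes. Of all 15535 genes, 1206 were called with the block. DESeq2 called 1 receptor, and 371 genes in all. With 1 library left out the calls ran from 0 to 5 (receptors), 13 (coregulators), 2 (chaperones), 13 (oestrogen-induced), 7 (metabolism), 5 (sterol) and 2 (Esrra targets).

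Of 220 values of the 6 genes under these alternatives, 179 kept direction and side of the threshold (or stayed within counting error in FLICs), 17 lost a call, 13 gained one and 11 turned. Those that turned were of Esr1 and Pgr. With OHT in ES cells Esr1 was 0.017 at 5 CPM in 2 libraries. With 1 library left out, Esr1 ran from -0.42 to 0.28 with OHT in ES cells, from -0.20 to 0.12 between untreated cell types, from -0.42 to 0.25 between treated cell types and from -0.40 to 0.30 in the difference of OHT differences. Pgr ran from -0.64 to 0.17 with OHT in ES cells and from -0.57 to 0.24 in that difference. The cause was not tested. Esr2, Pgr and Greb1 gave no value at 5 CPM in 2 libraries. Depth limits Esr2 and Pgr, with 2 to 24 counts per library.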
